A study of Mus musculus with 2 samples.

Results

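The late cornified envelope 3 genes, Lce3a to Lce3f, were followed in whole skin of wildtype mice and of mice with an epidermal deletion design for Rnf31. The 6 genes were taken by symbol from a deposited table of 44166 genes, and the family was selected because its level differed between these same 2 libraries. The differences given here for Lce3 are therefore descriptions, and no test was made on them. Skin of C57BL/6 mice aged 3 days was sequenced as 1 library of the wildtype (labelled WT) and 1 library of RNF31fl/fl-K14-cre (labelled KO). The labels give both libraries the same strain, age and tissue. K14-cre is a Cre recombinase driven by the promoter of keratin 14, a gene of basal keratinocytes, so deletion is aimed at the epidermis and its appendages and not at the dermis, vessels and immune cells of the same tissue. Rnf31 codes for HOIP, the enzyme that builds linear ubiquitin chains. How many animals each library holds is not stated in the sources used here. There were no replicates, so no difference has a replicate check and none carries a p-value of its own.

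Keratinocytes move outward from the basal layer, stop dividing and replace their plasma membrane with the cornified envelope, a sheet of proteins joined by transglutaminases. Late cornified envelope proteins are small proteins that join this sheet at the end of the process, and their genes lie side by side in the epidermal differentiation complex, with those of involucrin, loricrin, filaggrin and the small proline-rich proteins. In human skin, genes of the LCE3 group are low in healthy epidermis and rise after barrier injury and in psoriasis, whereas the LCE1 group is expressed in healthy epidermis. Separate roles for the 6 mouse Lce3 genes are not described here, since none is established well enough to state.

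Depth was 19619928 reads in the library labelled WT, of which 92.56% aligned, and 20511407 reads in that labelled KO, of which 93.59% aligned. Levels are FPKM, fragments per kilobase of transcript, scaled to library depth, as deposited. Rnf31 itself was at 3.95 FPKM in the library labelled WT and 5.40 FPKM in that labelled KO. The targeted transcript was thus not lower in the library labelled KO, a sum over the whole gene that does not show whether the floxed exons were lost. Directions are given between the libraries as labelled.

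All 6 genes matched the RefSeq promoter table, and the 120 bases before each start are shown because 4 short words recur in them. The windows are in GRCm38.p6, at chr3:92926231-92926350 on the minus strand for Lce3a and on the plus strand for the others, at chr3:92932859-92932978 for Lce3b, chr3:92944366-92944485 for Lce3c, chr3:92957270-92957389 for Lce3d, chr3:92966941-92967060 for Lce3e and chr3:92992097-92992216 for Lce3f. Each runs 5′ to 3′ on the strand of its gene, and capitals mark the shared words.
Lce3a: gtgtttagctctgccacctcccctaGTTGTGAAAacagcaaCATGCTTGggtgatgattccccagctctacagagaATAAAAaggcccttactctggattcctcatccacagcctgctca
Lce3b: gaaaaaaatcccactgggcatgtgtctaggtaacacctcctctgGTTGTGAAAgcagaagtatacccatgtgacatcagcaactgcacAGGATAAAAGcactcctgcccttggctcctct
Lce3c: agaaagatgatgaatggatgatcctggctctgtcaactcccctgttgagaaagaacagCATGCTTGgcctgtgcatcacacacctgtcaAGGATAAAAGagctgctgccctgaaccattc
Lce3d: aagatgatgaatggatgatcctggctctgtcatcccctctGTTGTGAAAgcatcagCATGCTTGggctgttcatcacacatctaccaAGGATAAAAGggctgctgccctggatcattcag
Lce3e: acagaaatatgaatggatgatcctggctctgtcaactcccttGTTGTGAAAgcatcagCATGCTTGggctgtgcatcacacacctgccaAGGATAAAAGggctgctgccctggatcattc
Lce3f: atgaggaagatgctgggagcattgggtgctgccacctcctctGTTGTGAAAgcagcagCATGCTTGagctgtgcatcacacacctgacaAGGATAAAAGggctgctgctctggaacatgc

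The word ATAAAA stood upstream of all 6 Lce3 genes, with its first base 44 bases before the start in Lce3a and 28 to 30 bases before it in the other 5. The words were found after the sequences had been seen, on the strand of the gene, in the 250 bases before each start. In 5 genes it lay inside the longer word AGGATAAAAG, which Lce3a lacked. Of 32851 RefSeq promoter windows of the same length, 10.2% held ATAAAA and 0.0548%, or 18 windows, held AGGATAAAAG. The shares of all windows given here include the Lce3 windows themselves, and the words were picked because they recur there. The word GTTGTGAAA stood in 5 of 6 Lce3 windows, missing in Lce3c, and in 0.0852% of all windows. The word CATGCTTG stood in 5 of 6, missing in Lce3b, and in 0.466% of all windows. None of the 3 longer words was found upstream of the 14 Lce1 genes or the 10 Sprr2 genes with a window, while ATAAAA was found in 12 of 14 and 3 of 10. In pairs, the upstream windows of the 6 genes were 50.9% to 82.8% identical (median 56.1%). Over aligned bases alone the identity was 63.5% to 86.9% (median 70.1%). Since the 6 genes are copies of each other, shared words carry no separate weight per gene.

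Of 8 motifs from a list of epidermal and stress factors, searched on both strands of the same 250 bases, none was found in more than 3 Lce3 windows. The ETS motif GGAAG was in 3 of 6, against 64.1% of all windows, and the KLF motif GGGTG was in 2 of 6, against 52.0%. The C/EBP motif TTGCNNAA was in 1 of 6, against 9.56%. The TATA motif TATAAA, which overlaps in sequence with ATAAAA, was in 1 of 6, against 12.4%. The AP-1 motif TGANTCA, the GRHL motif AACCGG, the STAT motif TTCNNNGAA and the cAMP response motif TGACGTCA were in 0 of 6, against 6.75%, 5.62%, 7.02% and 1.55%. Of the 10 Sprr2 windows, 7 held the AP-1 letters, 7 held TATAAA and 7 held GGAAG. Of the 14 windows of the Lce1 and Lce6a group, 0, 3 and 11 held them. These are matches of letters in a short window and say nothing of binding.

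Of the 6 members, 5 were under 1 FPKM in the library labelled WT, and all were far higher in that labelled KO, where each ranked within the top 189 of 14541 genes. In whole skin, fewer cells of a type and less RNA per cell cannot be told apart. Lce3c (ENSMUSG00000045475) was at 6.47 FPKM and 1656 FPKM, a ratio of 256 with a 95% interval of 184 to 371. Lce3b (ENSMUSG00000042031) was at 0.216 FPKM and 967 FPKM, a ratio of 4477 with an interval of 899 to 197890. These intervals come from fragments estimated from FPKM, here about 34 and 9054 for Lce3c and about 1 and 5126 for Lce3b, and cover counting error only. The width for Lce3b is that of a single fragment in the library labelled WT.

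Lce3e (ENSMUSG00000074433) was at 0.193 FPKM, about 1 fragment, in the library labelled WT and at 629 FPKM in that labelled KO, a ratio of 3269 (692 to 152314). Lce3f (ENSMUSG00000068885) was at 0.403 FPKM, about 3 fragments, and at 649 FPKM, a ratio of 1611 (469 to 6649). Both lie at the distal end of the cluster and were carried by too few wildtype fragments for their ratios to be ordered. Lce3a (ENSMUSG00000054325) had a listed value of 0 in the library labelled WT and was at 665 FPKM in that labelled KO. Lce3d (ENSMUSG00000043472) was likewise listed at 0 and was at 736 FPKM. No fold is given for these 2 genes, since a deposited 0 can be a failed estimate as well as an absence of fragments.

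**Figure D1:**
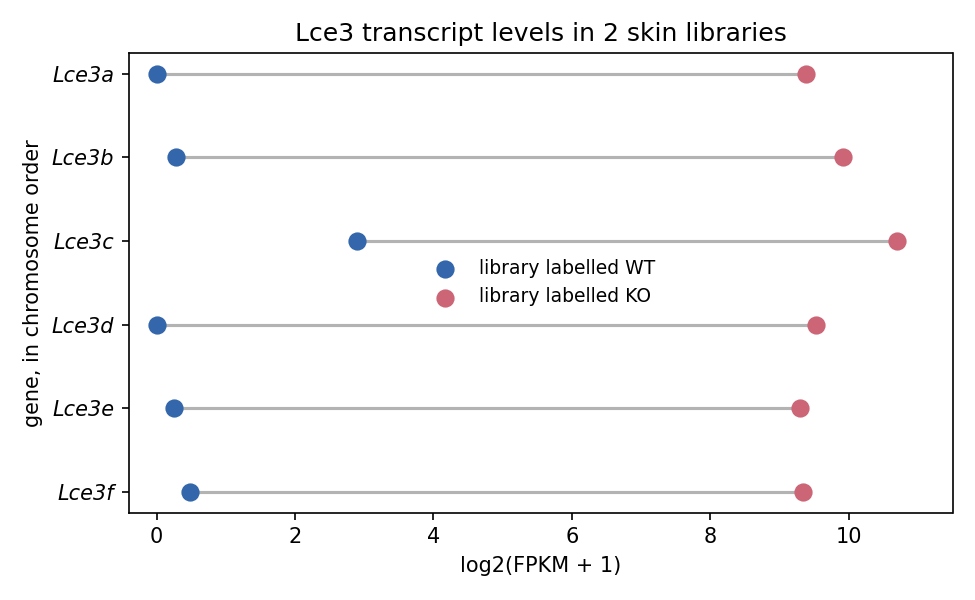
Level of each Lce3 gene in the 2 libraries, as log2(FPKM + 1), with genes in chromosome order and 1 point per library. In the library labelled WT, 5 points lie at or near 0 and Lce3c stands apart at 6.47 FPKM, while all 6 lie between 629 and 1656 FPKM in that labelled KO.

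The highest member level in the library labelled WT was that of Lce3c at 6.47 FPKM, and the lowest in that labelled KO was that of Lce3e at 629 FPKM. All 6 genes passed the floor of 1 FPKM in at least 1 library, and all 6 passed it in the library labelled KO. All 6 were at least 2-fold higher in the library labelled KO on the scale log2 of (FPKM + 1). Among the 14541 genes above the floor, 7.59% were higher by 2-fold or more and 4.09% lower by as much, and nothing is read from the members' count because they were selected on this contrast. The median log2 difference was 9.21 for the 6 members and -0.08 for all genes above the floor. Leaving out the 2 genes listed at 0 gave a median of 8.95 over 4 genes.

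On that scale the log2 difference was 9.64 for Lce3b, 9.53 for Lce3d, 9.38 for Lce3a, 9.05 for Lce3e, 8.86 for Lce3f and 7.79 for Lce3c. These values ranked 2, 3, 4, 7, 8 and 16 among all genes above the floor. For Lce3a and Lce3d, with a listed 0, value and rank are set by the pseudocount and are neither a fold nor a bound. For Lce3b, Lce3e and Lce3f, also under 1 FPKM in the library labelled WT, the pseudocount sets much of the value. With a pseudocount of 0.1 the order was Lce3d (12.85), Lce3a (12.70), Lce3b (11.58), Lce3e (11.07), Lce3f (10.33) and Lce3c (7.98), which remained the member with the smallest log2 difference. By level in the library labelled KO, the order was Lce3c, Lce3b, Lce3d, Lce3a, Lce3f and Lce3e, with Lce3c at rank 73 and Lce3e at rank 189 of all genes above the floor. The highest was 2.63-fold above the lowest. With 1 library there is no spread to say which neighbours in that order differ.

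In the library labelled KO the 6 members were nearer to each other in level than in the library labelled WT, where Lce3c made up most of the family. Lce3c gave 88.9% of summed Lce3 FPKM in the library labelled WT and 31.2% in that labelled KO. By estimated fragments the share was 87.2% (exact binomial interval 72.6% to 95.7%) of 39 fragments and 32.0% (31.5% to 32.6%) of 28263 fragments. Lce3c was thus the member with most of the wildtype signal and also the most abundant in the library labelled KO.

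Reads may not have been divided correctly among the members, because their sequences are close to identical in the coding part. Each gene has 1 annotated transcript of 491 to 611 bases in 2 exons, and the first exon, of 27 to 50 bases, is noncoding. The coding part has 297 bases with the stop codon in every member and lies wholly in exon 2. Over the 15 pairs it was 94.3% to 99.3% identical, with a median of 97.6%. Lce3d and Lce3f were the closest pair, with 2 differing bases, and Lce3a and Lce3b the most distant, with 17. Of the 50-base words of each transcript, 12.1% for Lce3b, 19.0% for Lce3a, 35.7% for Lce3c, 43.7% for Lce3e, 48.0% for Lce3f and 49.3% for Lce3d also occurred in another annotated transcript, always that of another Lce3 gene. For 100-base words the shares were 0.0% for Lce3a, 1.08% for Lce3b, 24.1% for Lce3c, 28.3% for Lce3d, 36.4% for Lce3e and 43.0% for Lce3f. Such a share depends on the word length and does not measure the error of an FPKM. How the authors assigned such reads is not stated in the sources used here, so single members are uncertain by an unknown amount. The family sum is firmer in that it does not depend on how shared reads were divided among members.

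**Figure D2:**
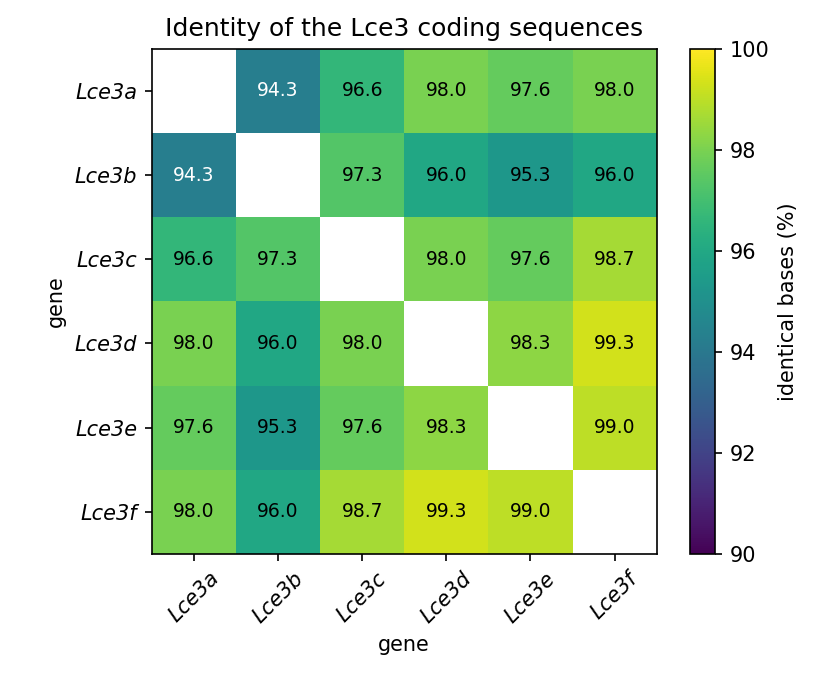
Percent of identical bases between the coding sequences of each pair of Lce3 genes, over 297 bases. Values run from 94.3% for Lce3a with Lce3b to 99.3% for Lce3d with Lce3f.

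Summed over the family, Lce3 transcripts were at 7.28 FPKM in the library labelled WT and 5302 FPKM in that labelled KO. The ratio was 728 (533 to 1024), and the log2 difference on the scale with a pseudocount was 9.32. Lce3 transcripts made up 0.00108% of all FPKM in the library labelled WT and 0.714% in that labelled KO. Without Lce3c the sum was 0.811 FPKM, about 5 fragments, against 3646 FPKM, a ratio of 4494 (1925 to 13842). The ratios of 728 and 4494 and their intervals treat the wildtype zeros of Lce3a and Lce3d as true absence, while their KO levels are in both sums. If those zeros are failed estimates, both ratios are too high. With Lce3c kept and the 2 genes listed at 0 left out, the ratio was 536 (392 to 754).

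Most of the other late cornified envelope genes were also higher in the library labelled KO, from a far higher wildtype level. The 15 genes of the Lce1 group with Lce6a summed to 610 FPKM and 4470 FPKM, a ratio of 7.33. Of these 15, 14 were at least 2-fold higher and 1 lower, with a median log2 difference of 3.12. The largest difference among them was 4.18 for Lce1e, which was at 20.0 and 382 FPKM. It lay below the smallest Lce3 value, 7.79 for Lce3c, so the log2 differences of the Lce3 and Lce1 groups did not overlap. That value of Lce3c ranked 16 among the 14541 genes above the floor. Nothing is read from the separation, because Lce3 was selected on this contrast. After Lce1e came Lce1h, from 12.9 to 221 FPKM, Lce1f, from 31.4 to 491 FPKM, and Lce1k, from 16.2 to 252 FPKM. Among all 21 Lce genes, Lce3 held 1.18% of summed FPKM in the library labelled WT and 54.3% in that labelled KO. The corresponding shares of estimated fragments were 0.754% (0.537% to 1.03%) and 44.3% (43.9% to 44.7%). These intervals cover counting error only, not error in estimating fragments from FPKM.

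The Sprr2 genes, which encode small proline-rich proteins of the cornified envelope, started from a low wildtype level like Lce3. They summed to 9.28 FPKM and 3682 FPKM, a ratio of 397, and all 11 were at least 2-fold higher. Their median log2 difference was 7.38, over a range of 2.88 to 9.36, and for 5 of them the library labelled WT has a listed 0. The log2 differences of 5 Sprr2 genes lay inside the Lce3 range of 7.79 to 9.64. They were Sprr2d (9.36), at 0.453 and 955 FPKM, Sprr2i (8.57), Sprr2g (8.05), Sprr2e (7.96) and Sprr2f (7.91). Sprr2i and Sprr2f are among those listed at 0, so the pseudocount sets their values. Sprr2d, Sprr2g and Sprr2e had about 3, 4 and 1 estimated fragments in the library labelled WT. In the library labelled KO the Sprr2 levels spread more widely than those of Lce3, with the highest 154-fold above the lowest against 2.63-fold. The lowest was Sprr2a2, at 6.34 FPKM and about 273 estimated fragments. Sprr2a3, at 322 FPKM, had about 13902, and the highest, Sprr2h, at 973 FPKM, about 8295. The Sprr2 spread in FPKM thus also depends on the transcript lengths used. Sharing of reads among Sprr2 genes was not examined.

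**Figure D3:**
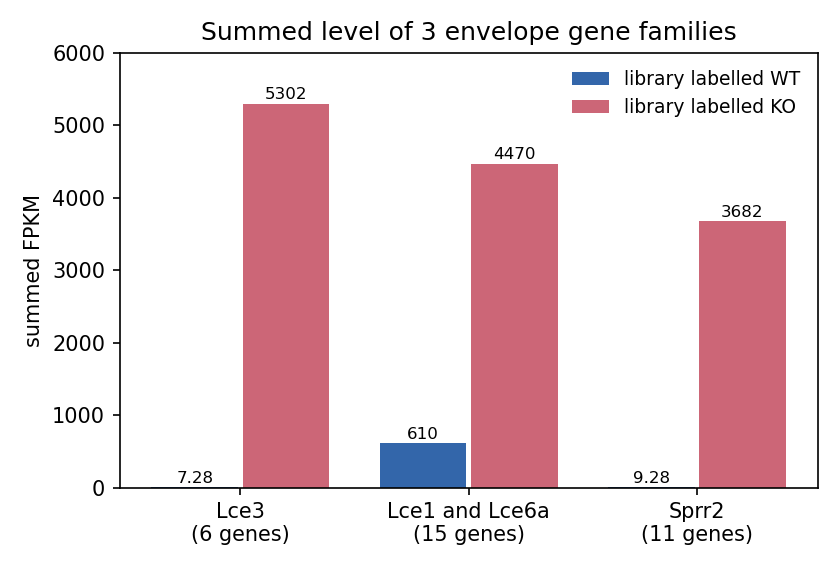
Summed FPKM of the 6 Lce3 genes, the 15 Lce1 and Lce6a genes and the 11 Sprr2 genes in each library, on a linear axis from 0. The Lce3 sum is the lowest of the 3 in the library labelled WT, at 7.28 FPKM, and the highest in that labelled KO, at 5302 FPKM.

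The 6 genes lie within 68.14 kb of chromosome 3 (GRCm38, 92925287 to 92993426). Lce3a is on the minus strand at 92925287 to 92926230. The other 5 are on the plus strand, Lce3b at 92932979 to 92934097, Lce3c at 92944486 to 92945733, Lce3d at 92957390 to 92958505, Lce3e at 92967061 to 92968281 and Lce3f at 92992226 to 92993426. Gaps between them were 6.75, 10.4, 11.7, 8.56 and 23.9 kb in that order. The only other annotated gene within the cluster, the pseudogene Gm38078, was listed at 0 in both libraries.

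Protein-coding genes on either side differed far less than the members. On the proximal side, 2310050C09Rik, 55.1 kb away, was at 18.1 and 178 FPKM (log2 difference 3.22), Lce1l, 74.0 kb away, at 25.0 and 135 FPKM (2.38), and Kprp, the keratinocyte proline-rich protein gene 98.0 kb away, at 5.46 and 66.0 FPKM (3.37). On the distal side, Crct1, 20.8 kb away, was already at 868 FPKM in the library labelled WT and at 2640 FPKM in that labelled KO, a ratio of 3.04. The next gene, Lce1m, 24.4 kb from Lce3f, was the member of its group with the opposite direction, at 130 and 63.5 FPKM (log2 difference -1.02). Gm4858, 75.4 kb away, was under the floor in both libraries, at 0.210 and 0.0327 FPKM. None of the 3 nearest genes on either side had a log2 difference as large as the smallest Lce3 value of 7.79.

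Over 1 Mb on each side, 59 genes were above the floor, of which 47 were at least 2-fold higher and 4 lower. Of the 53 that are not Lce3, 41 were higher and 4 lower, with a median log2 difference of 2.88. Sprr2d, which lies before Lce3a, had the highest log2 difference of these 53, at 9.36.

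**Figure D4:**
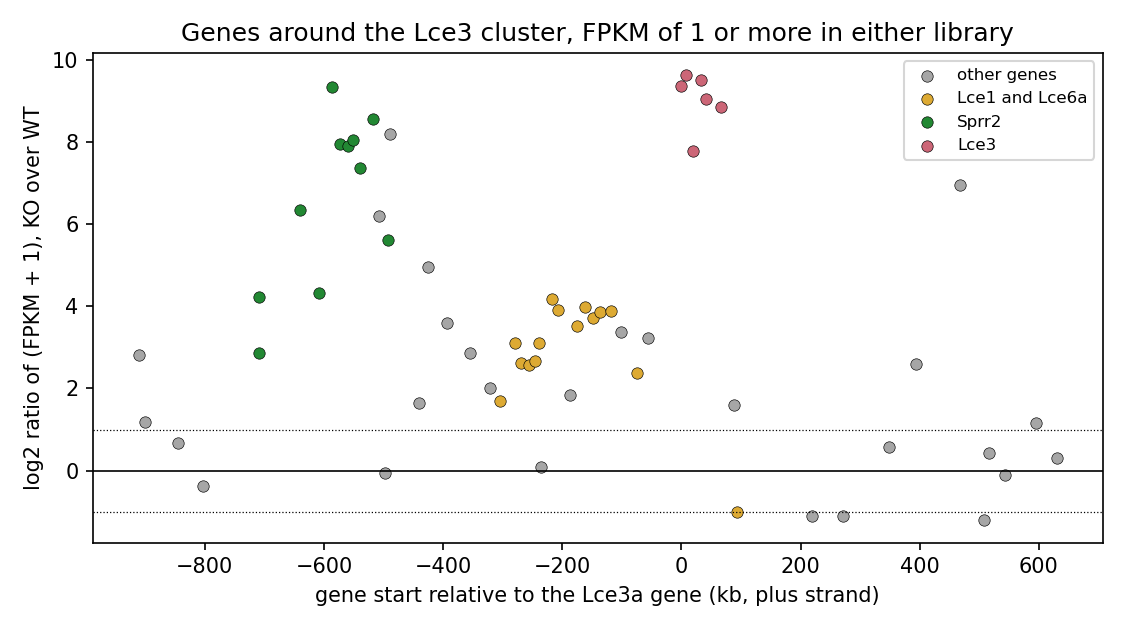
Log2 difference of each gene above the floor within 1 Mb of the Lce3 cluster, against the distance of its start from that of Lce3a in kb, with dotted lines at a 2-fold difference. The 6 Lce3 genes lie between 7.79 and 9.64, a range that also holds 5 Sprr2 genes and Sprr1b, and of the 53 other genes, 41 lie above the upper dotted line.

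Genes whose pair of levels lay nearest to the median Lce3 gene were found by distance on the log2(FPKM + 1) scale over the 2 libraries. The nearest was Defb14, a beta-defensin gene on chromosome 8, which was listed at 0 and was at 565 FPKM, at a distance of 0.41. It was followed by Sprr2d (0.52), Sprr2i (0.92), Sprr2e (1.26) and Sprr2f (1.56). Gm5416 on chromosome 16, from a listed 0 to 207 FPKM, lay at 1.77, the serum amyloid gene Saa3 on chromosome 7, from 0.169 to 192 FPKM, at 1.86, and Sprr2a3 at 2.05. Lce3c lay farther from that median than any of these 8 genes, at 2.91, and the other 5 members lay at 0.15 to 0.47. With 2 libraries, likeness of this kind rests on 2 values per gene. Of 817 genes under 1 FPKM in the library labelled WT and above it in that labelled KO, 7 reached 500 FPKM in the latter, bounds chosen after the values had been seen. They were 5 Lce3 genes (all but Lce3c), Sprr2d and Defb14.

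**Figure D5:**
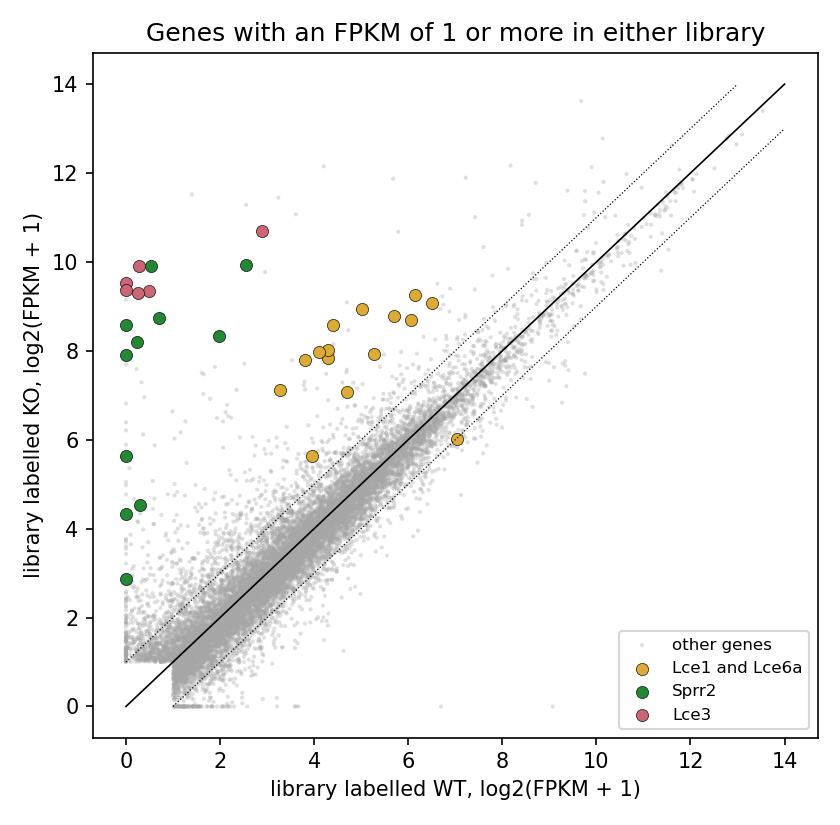
Levels in the 2 libraries of the 14541 genes above the floor, as log2(FPKM + 1), with equal levels on the solid line and 2-fold differences on the dotted lines. Lce3 genes sit at the upper left among Sprr2 genes, whereas the Lce1 and Lce6a genes start from 8.68 to 130 FPKM in the library labelled WT.

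Among 16 other genes of the epidermal differentiation complex, 14 were above the floor, 8 were at least 2-fold higher, 2 lower and 4 inside the 2-fold range, with a median log2 difference of 1.63. Sprr1b, a small proline-rich protein gene, was at 8.43 and 2792 FPKM (8.21), within the Lce3 range. Rptn, which encodes the envelope protein repetin, was at 0.257 and 156 FPKM (6.96). Sprr4 was listed at 0 and was at 30.4 FPKM, which rests on about 11 estimated fragments. The structural genes of the normal granular layer moved less than Lce3. Lor (loricrin) was at 758 and 1213 FPKM (0.68) and Flg (filaggrin) at 117 and 176 FPKM (0.58). Ivl (involucrin) was at 9.67 and 77.3 FPKM (2.88). The 2 lower genes were Flg2, at 13.4 and 5.65 FPKM, and Crnn (cornulin), at 80.8 and 36.8 FPKM.

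Lce3 proteins are substrates of transglutaminases, and of 7 genes for these enzymes and the proteases and inhibitor that act with them, 4 were at least 2-fold higher, 0 lower and 3 inside. The median log2 difference was 1.17. Cst6, which encodes cystatin M/E, an inhibitor of cathepsins, was at 24.7 and 182 FPKM (2.83), and Ctsl (cathepsin L) at 111 and 324 FPKM (1.54). Tgm1, the main transglutaminase of the keratinocyte membrane, was at 46.4 and 118 FPKM (1.33). Tgm5 was at 2.36 and 6.58 FPKM (1.17). None of these genes differed by as much as the Lce3 member with the smallest difference.

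Of 25 genes for transcription and chromatin factors of the epidermal programme, 5 were at least 2-fold higher, 1 lower and 19 inside, with a median log2 difference of 0.16. The AP-1 subunit genes Fosl1, at 0.792 and 13.3 FPKM (2.99), and Fos, at 6.68 and 54.3 FPKM (2.85), had the largest values. Klf4, a factor needed for the skin barrier, was at 113 and 276 FPKM (1.28). Junb was at 112 and 254 FPKM (1.18), and Grhl3, also needed for the barrier, at 8.44 and 19.2 FPKM (1.10). Gata3 was the lower gene, at 86.3 and 39.5 FPKM (-1.11).

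The keratins of injured and hyperproliferative epidermis were also higher, 4 of 4 by at least 2-fold, and their median log2 difference was 7.07. Krt6b, at 1.64 and 2935 FPKM, had the value of 10.12 that ranked above every Lce3 gene on the scale log2 of (FPKM + 1). That rank depends on the pseudocount. By plain ratio of FPKM, Krt6b was at 1789, below Lce3b (4477) and Lce3e (3269) and above Lce3f (1611) and Lce3c (256). The ratios of Lce3b, Lce3e and Lce3f rest on at most 3 estimated wildtype fragments. Krt16 was at 17.4 and 4552 FPKM (7.95), Krt6a at 50.3 and 3745 FPKM (6.19) and Krt17 at 1595 and 4027 FPKM (1.34). These keratin genes also have close relatives in sequence.

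Cell type markers also differed between the libraries, and their part in the Lce3 difference was not tested. The 5 basal keratinocyte markers summed to 2138 and 15869 FPKM, with 4 higher and 1 lower, and Krt14, the gene whose promoter drives the Cre, was at 816 and 12590 FPKM. Of the other basal markers, Col17a1 (19.3 and 80.2 FPKM), Itga6 (23.3 and 87.4 FPKM) and Krt5 (1054 and 3014 FPKM) were higher and Krt15 (226 and 97.1 FPKM) lower. The 4 suprabasal markers summed to 2574 and 9359 FPKM, with 2 higher and 1 lower. Krtdap was at 1121 and 7013 FPKM (2.64) and Sbsn at 340 and 1826 FPKM (2.42), whereas Krt10 was at 678 and 188 FPKM (-1.84). The 5 granular markers summed to 900 and 1490 FPKM, with 2 higher (Ivl and Hrnr, 2.88 and 2.60) and 1 lower (Flg2, -1.11). Markers of all 3 keratinocyte layers were above the floor in both libraries. The 9 macrophage markers summed to 219 and 561 FPKM, with 7 higher and 0 lower, led by Cd14 (1.86), C1qb (1.46), Mrc1 (1.46) and C1qc (1.42). The 9 neutrophil markers summed to 18.0 and 52.7 FPKM, and of the 5 above the floor, 3 were higher and 0 lower. Retnlg was listed at 0 and was at 26.2 FPKM, Ngp was listed at 0 and was at 6.37 FPKM, and Ltf was at 0.0235 and 1.99 FPKM. Ly6g was listed at 0 in both libraries, and Elane and Mpo were under the floor in both. The 6 T cell markers were all under the floor, summing to 1.58 and 1.14 FPKM. The 5 fibroblast markers summed to 2115 and 1514 FPKM, with all 5 inside the 2-fold range.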

How the data were processed

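Whole skin RNA was extracted with TRIzol and made into directional libraries, per the labels' protocols. The submitters' processing notes name cutadapt 1.9.1, HISAT2 2.0.4, Cufflinks 2.2.1 and GRCm38. The annotation, the use of strand and the division of shared reads are not stated in the sources used here. The deposited table gives FPKM per gene and library and the q-value of the authors' own comparison, per the file headers. A second deposited table gives reads per library and the fraction aligned.

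Python 3.11.15, pandas 2.3.3, SciPy 1.17.1 and Biopython 1.88 were used. Differences are log2 of (FPKM + 1), KO over WT. The floor was 1 FPKM in at least 1 library, and a gene was higher or lower past a 2-fold difference. Fragments were estimated by dividing FPKM by the step of 1 fragment, the median of the lowest cluster of values, of 42 to 71 single-transcript genes within 5% of the length (0.158 to 0.238 FPKM). Ratios of Lce3 genes and sums carry exact binomial 95% intervals on these fragments, rescaled to FPKM. Sums of the other families, whose transcripts differ more in length, carry none. All intervals, those of shares included, cover counting error only and not error in the step. Without molecular identifiers a read is also not a separate molecule. The steps were tested on simulated data that held no reads shared between genes, so that test does not cover the division of such reads. Positions and exons come from GENCODE mouse release 21 and promoters from RefSeq GRCm38.p6.

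The members and lists were chosen with earlier results of these data known. Named genes are the members, the 3 nearest protein-coding genes on each side, up to 4 genes past the 2-fold rule with the largest difference in each list, the 8 genes nearest in level, Rnf31, and 8 keratinocyte genes. Genes inside the 2-fold range or under the floor, Grhl3, Gata3, Flg2, Crnn, Krt15, the pseudogene and the shared words were named after their values were seen. The alternatives were a pseudocount of 0.1, no floor, a floor of 5 FPKM, a 4-fold rule and 2 other scalings.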

Additional observations from a re-analysis of the deposited data

How the results depend on the processing

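The count of 6 higher Lce3 genes was the same under all 6 alternatives. With members at no more than 6.47 FPKM in the library labelled WT and at least 629 FPKM in that labelled KO, none could have changed it. The log2 difference of the Lce3 sum ran from 9.27 to 9.49 under the alternatives that give it. The other pseudocount and the 2 other scalings are the alternatives that can move a single gene. Under these, the log2 difference ran from 9.35 to 12.70 for Lce3a, 9.60 to 11.58 for Lce3b, 7.74 to 7.98 for Lce3c, 9.50 to 12.85 for Lce3d, 9.01 to 11.07 for Lce3e and 8.82 to 10.33 for Lce3f, with the highest value in each case from the pseudocount of 0.1. With a pseudocount of 0.1, 1483 genes were higher and 1085 lower, and the Sprr2 median was 8.92. With a floor of 5 FPKM, 777 were higher and 360 lower. Under the 4-fold rule, 297 were higher and 49 lower. Scaling by the median of ratios gave 1249 higher and 502 lower, and scaling without the 50 most abundant genes 1030 and 677. Depth limits the wildtype side, where 5 members had at most 3 estimated fragments. No paired analysis was possible because there is 1 library per genotype.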

Other observations

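In the authors' deposited table, the comparison of the 2 libraries called 2 of the 6 Lce3 genes, the same 2 that are listed at 0 in the library labelled WT. The deposited q-value was 0.0120 for Lce3a and for Lce3d, 0.101 for Lce3c, and 0.999 for each of Lce3b, Lce3e and Lce3f, while the FPKM in the library labelled KO was 665 for Lce3a and between 629 and 967 for the last 3 genes. The authors' deposited table tested 15589 genes and called 96. Of 123 tested genes listed at 0 in the library labelled WT with at least 1 FPKM in that labelled KO, the authors' deposited table called 32, or 26.0%. Of 980 tested genes above 0 in the library labelled WT and at least 2-fold higher in that labelled KO, it called 58, or 5.92%. The authors' deposited table called 10 of the 15 Lce1 and Lce6a genes.

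The annotated ends of Lce3d differ between sources. RefSeq ends the gene 69 bases later than GENCODE does, and its transcript of 491 bases in GENCODE is the shortest of the 6. An FPKM scales with the inverse of the transcript length used, so the level of Lce3d relative to the other members depends on that choice. For Lce3b and Lce3c the ends differ by 1 and 3 bases, and RefSeq starts Lce3f 9 bases earlier.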
